A study of Mus musculus with 2 samples.

Results

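The 43 genes described here encode proteins of DNA replication and S phase and were chosen by gene symbol from 39695 gene entries. They were measured by RNA-seq in whole testes of 9-day-old mice, in 1 library from control and 1 library from Bcas2F/-;Vasa-Cre males. Bcas2 encodes a component of the spliceosome, and the study asked what its loss does to RNA in male germ cells. By the study's methods, males of both groups had 1 deleted and 1 floxed allele of Bcas2, so that the controls were also short of a functional copy, and the mutants carried Vasa-Cre, a transgene active in germ cells, in addition. The strain was labelled C57BL/6, whereas the study's methods give a mixed background of 129 and C57BL/6. The number of mice behind each library was not given in the sources used here. With 1 library per genotype, no difference below has a replicate check, no p-value is given, and every interval covers counting error only.

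Replication is prepared in G1, when the origin recognition complex, Cdc6 and Cdt1 load the MCM helicase onto DNA, a step called licensing. In S phase Cdc45 and the GINS complex join MCM to form the active helicase, primase and the DNA polymerases copy the strands on the sliding clamp PCNA, and ribonucleotide reductase supplies deoxynucleotides. Many of these genes are transcribed in proliferating cells under E2F factors. In the testis of this age spermatogonia divide by mitosis and the first germ cells pass through the premeiotic S phase, while Sertoli cells are also still dividing, so whole-testis RNA holds replication transcripts of several cell types.

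Levels are given as RPKM, the reads of a gene scaled to its length and to library size. A difference is the log2 ratio of RPKM + 1 in Bcas2F/-;Vasa-Cre over control testes, where the added 1 understates the change of low genes. The reads behind the RPKM values were recovered from the values themselves. The library sizes used for scaling were inferred in the same way, at 19918750 reads for the control and 19331687 for the Bcas2F/-;Vasa-Cre library. A counting interval is the 95% Clopper-Pearson interval of the RPKM ratio on the log2 scale, without the added 1. The read number of a gene may be off by a whole factor, which changes the width of its interval but not its ratio. A ratio of reads summed over genes, as for Pcna with its copy, can change as well. The factor alters the weight of a gene in the sum. The targeted gene itself, Bcas2, had 39.5 RPKM in control and 25.7 RPKM in Bcas2F/-;Vasa-Cre testes (log2 ratio −0.60). Vasa-Cre is not active in the somatic cells, whose RNA is part of both libraries.

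Transcripts of the replication machinery were mostly lower in Bcas2F/-;Vasa-Cre than in control testes, by a small amount. In RNA of whole testes, fewer cells of a type and less RNA per cell cannot be told apart. Of the 43 genes, 42 had a mean of at least 1 RPKM over both libraries, and Fen1 did not. Of these 42 genes, 36 were lower and 6 were higher, whereas 46.3% of all 14831 genes passing the same limit were lower. The median log2 ratio of the replication genes was −0.25, beside 0.015 for all genes passing the limit. The counting interval lay wholly below no difference for 32 genes, wholly above it for 3 genes and across it for 7 genes. Over all 14416 genes that passed the limit and had recovered reads, 17.9% of intervals lay below and 19.9% above, so that intervals clear of no difference were common in this comparison. No replication gene was past 1.5-fold in either direction, where the background was 1.69% of genes lower and 1.57% higher. Summed over the 42 genes, the level was 1966 RPKM in control and 1641 RPKM in Bcas2F/-;Vasa-Cre testes. Their summed reads were 66534 and 54752, a log2 ratio of −0.24 after scaling to library size (counting interval −0.25 to −0.22). This interval treats the reads of the 42 genes as 1 pool. It does not cover the spread of their log2 ratios, which ran from −0.58 to 0.32. At least 10% of the exon bases of Orc1, Orc2, Mcm7, Gins2, Rfc2, Rfc4, Rfc5 and Rnaseh2a lie within exons of another gene, and the values of these 8 genes are uncertain to that extent. Without them the median was −0.24, with 28 of 34 genes lower.

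**Figure D1:**
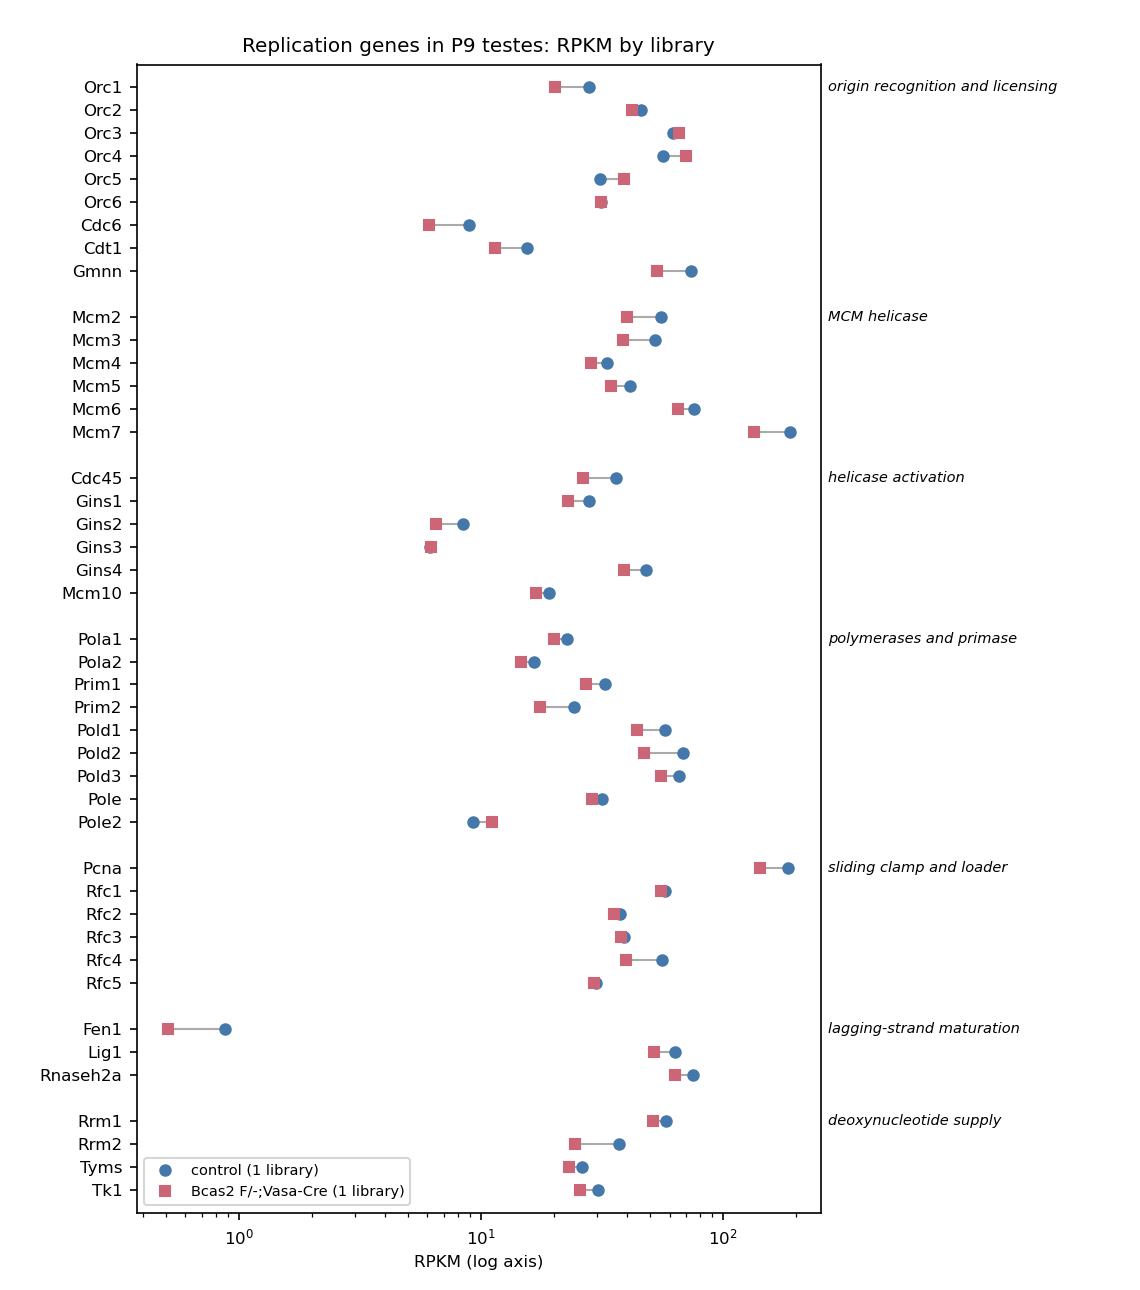
RPKM of the 43 replication genes on a log axis, 1 point per library, with control as blue circles and Bcas2F/-;Vasa-Cre as red squares, ordered by role. Red lies to the left of blue for most genes, including all MCM subunits, and to the right for Orc3, Orc4, Orc5, Orc6, Gins3 and Pole2.

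The replication genes were also set beside protein-coding genes of like level, that is, the 9199 genes within the members' range of mean RPKM. Those genes had a median log2 ratio of 0.01, and 46.7% of them were lower. Of the 9198 with recovered reads, 1848 had an interval wholly below no difference and 2203 wholly above it. A log2 ratio below −0.2 was found in 25 of 42 replication genes (59.5%) and in 1062 of the 9199 genes (11.5%). The genes of both sets came from the same pair of libraries and are not independent of each other, so these shares are descriptions.

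**Figure D2:**
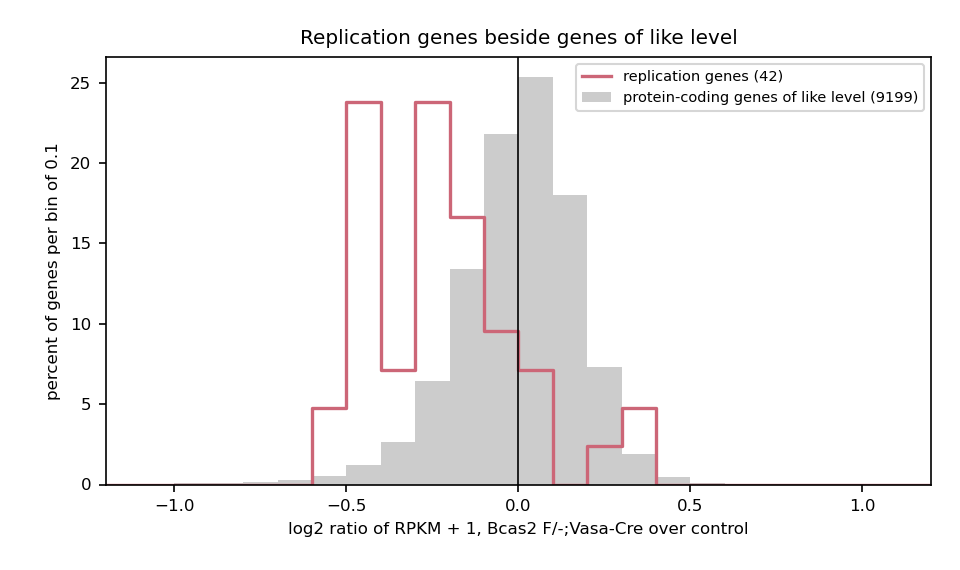
Share of genes in each bin of 0.1 of the log2 ratio of RPKM + 1, for the 42 replication genes (red line) and the 9199 protein-coding genes of like level (grey). The grey distribution is centred near 0, whereas 25 of 42 replication genes lie below −0.2.

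The 9 genes of origin recognition and licensing had a median log2 ratio of −0.12, with 5 lower and 4 higher. Their summed reads gave a log2 ratio of −0.03 (counting interval −0.07 to 0.01). Within this group 2 patterns were noticed after the values were seen. Orc1, Cdc6, Cdt1 and Gmnn were each lower, with a median log2 ratio of −0.45, whereas the other subunits of the origin recognition complex, Orc2 to Orc6, had a median of 0.08. Orc1 is the subunit whose protein is cell cycle regulated in mammals, and its level was 27.9 RPKM in control and 20.2 RPKM in Bcas2F/-;Vasa-Cre testes (log2 ratio −0.45; 553 and 389 reads, interval −0.66 to −0.27). Cdc6, the ATPase that recruits the helicase with Cdt1, had 8.88 and 6.08 RPKM, a log2 ratio of −0.48. Cdt1 itself had 15.5 RPKM in control and 11.4 RPKM in Bcas2F/-;Vasa-Cre testes, a log2 ratio of −0.41. Gmnn encodes geminin, the inhibitor of Cdt1 that prevents licensing from occurring again in the same cycle, and it was lower alongside its target, at 73.6 and 53.1 RPKM (log2 ratio −0.46). All 4 intervals lay below no difference, beside 17.9% of all genes. These 4 genes were set apart after their values were seen, so their common direction is a description only.

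Orc5 and Orc4 had the highest log2 ratios of all replication genes. The Orc5 level was 31.1 RPKM in control and 39.1 RPKM in Bcas2F/-;Vasa-Cre testes (log2 ratio 0.32; 1508 and 1842 reads, interval 0.23 to 0.43). For Orc4 the levels were 56.6 and 70.0 RPKM, a log2 ratio of 0.30 (interval 0.20 to 0.42). Both intervals lay wholly above no difference. Orc3 had 61.9 and 65.7 RPKM and Orc6 had 31.2 and 31.4 RPKM, with intervals that crossed no difference. Orc2, at 45.8 and 42.0 RPKM, was the one of these 5 subunits that was lower, with a log2 ratio of −0.12 (interval −0.23 to −0.03). The summed reads of Orc2 to Orc6 were 7122 in control and 7541 in Bcas2F/-;Vasa-Cre testes, a log2 ratio of 0.13. This group was formed after the values were seen, so no interval is given for it. This split within the complex was noticed in the values and was not tested.

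To show the regulatory sequence beside these values, the RefSeq promoter windows (build GRCm38.p6) of the members were searched for E2F core motifs, which are TTTCCCGC, TTTGGCGC, TTTCGCGC and TTTGCCGC, and for CCAAT, the box bound by NF-Y, on both strands. Bases inside exons of protein-coding genes are not printed. The stretches of Orc5, the gene with the highest ratio (chr5:22550430-22550588, minus strand), and of Cdc6 (chr11:98907987-98908046, plus strand) follow, 5′ to 3′ along the gene, with an E2F motif in capitals. The Cdc6 stretch was picked for its match.
Orc5: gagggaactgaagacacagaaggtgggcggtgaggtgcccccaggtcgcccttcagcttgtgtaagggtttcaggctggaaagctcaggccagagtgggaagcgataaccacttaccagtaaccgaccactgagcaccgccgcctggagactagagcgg
Cdc6: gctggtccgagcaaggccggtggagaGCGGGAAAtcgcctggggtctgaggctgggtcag
The Cdc6 stretch holds TTTCCCGC on its opposite strand, whereas the Orc5 stretch holds none of the motifs searched. These stretches do not stand for the other genes of the group. The window of Orc3 (log2 ratio 0.08) also holds TTTCCCGC, and that of Orc2 (log2 ratio −0.12) holds no E2F motif. A match is a description of letters and not evidence of binding.

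The MCM genes, which encode the subunits of the replicative helicase, were lower without exception, with a median log2 ratio of −0.34 and all 6 intervals below no difference. Mcm7 was the most abundant replication gene in control testes, at 188 RPKM, and had 134 RPKM in Bcas2F/-;Vasa-Cre testes (4005 and 2765 reads), a log2 ratio of −0.49 (interval −0.56 to −0.42). Mcm2 had 55.5 and 40.2 RPKM, a log2 ratio of −0.46. The levels of Mcm3 were 52.1 and 38.6 RPKM, a log2 ratio of −0.42. The other 3 subunits had smaller differences. Mcm5 had 41.4 and 34.3 RPKM (log2 ratio −0.26). Mcm4 had 33.1 and 28.4 RPKM, and Mcm6 had 75.5 and 64.9 RPKM, with a log2 ratio of −0.21 for each. The intervals of Mcm2 (−0.54 to −0.39), Mcm3 (−0.51 to −0.35) and Mcm7 did not overlap that of Mcm6 (−0.28 to −0.15), a gap beyond counting error, although the spread between mice is unknown. Summed over the complex, the level was 446 RPKM in control and 340 RPKM in Bcas2F/-;Vasa-Cre testes.

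The promoters of Mcm5 (chr8:75109332-75109391, plus strand) and Mcm6 (chr1:128359780-128359839, minus strand) are shown because each holds a pair of overlapping E2F motifs, in capitals. They were picked after the matches were seen.
Mcm5: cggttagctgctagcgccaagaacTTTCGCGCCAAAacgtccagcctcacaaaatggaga
Mcm6: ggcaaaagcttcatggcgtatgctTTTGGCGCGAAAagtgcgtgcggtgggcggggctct
The capitals of Mcm5, 12 bases long, are the exact reverse complement of those of Mcm6. In each, TTTGGCGC and TTTCGCGC lie on opposite strands and share their central letters.

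Of the helicase activators, Cdc45 showed the largest difference and Gins3 none that counting could resolve. Cdc45, which binds MCM at the start of unwinding, had 36.1 RPKM in control and 26.2 RPKM in Bcas2F/-;Vasa-Cre testes (1131 and 798 reads), a log2 ratio of −0.45 (interval −0.59 to −0.33). The GINS complex is built of the products of Gins1 to Gins4, and 3 of these 4 genes were lower. Gins4 had 47.8 and 38.8 RPKM (log2 ratio −0.30), and Gins1 had 27.9 and 22.9 RPKM (log2 ratio −0.28). Gins2 had 8.41 and 6.51 RPKM, a log2 ratio of −0.33, but 67.3% of its exon bases also lie in exons of Gse1 on the other strand, so its reads are uncertain. Gins3 had 6.12 and 6.20 RPKM, a log2 ratio of 0.016 (interval −0.22 to 0.26). Mcm10, which links the helicase to polymerase alpha, had 19.1 and 16.9 RPKM, a log2 ratio of −0.17 whose interval (−0.33 to −0.01) came close to no difference.

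Among the 9 polymerase and primase genes, 8 were lower and Pole2 was higher, with a median log2 ratio of −0.25. Polymerase alpha and primase lay down the primers. Pola1, the catalytic subunit of polymerase alpha, had 22.6 and 20.03 RPKM, and its partner Pola2 had 16.5 and 14.6 RPKM, with a log2 ratio of −0.17 for each. The primase genes differed more, with Prim1 at 32.6 and 27.2 RPKM (log2 ratio −0.25) and Prim2 at 24.2 and 17.5 RPKM (log2 ratio −0.45, interval −0.61 to −0.32). Polymerase delta copies mainly the lagging strand, and its subunits Pold1, Pold2 and Pold3 were each lower. Pold2 had 67.9 RPKM in control and 47.2 RPKM in Bcas2F/-;Vasa-Cre testes (log2 ratio −0.52; 1071 and 722 reads, interval −0.66 to −0.39). Pold1, the catalytic subunit, had 57.5 and 43.9 RPKM (log2 ratio −0.38), and Pold3 had 65.9 and 55.4 RPKM (log2 ratio −0.25). Polymerase epsilon copies mainly the leading strand, and its 2 members here, Pole and Pole2, went in opposite directions. Pole, its catalytic subunit, had 31.6 and 28.7 RPKM (log2 ratio −0.14, interval −0.24 to −0.04). Pole2 had 9.27 and 11.1 RPKM (313 and 363 reads) and a log2 ratio of 0.23. Its interval, from 0.03 to 0.48, was the third above no difference beside those of Orc4 and Orc5. The other subunits, on the further S-phase list and named after their values were seen, were Pole4 at 77.2 and 65.6 RPKM (log2 ratio −0.23, interval below no difference) and Pole3 at 53.8 and 54.8 RPKM (log2 ratio 0.03, interval across it).

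Pcna encodes the sliding clamp that holds the polymerases on DNA. It had 185 RPKM in control and 142 RPKM in Bcas2F/-;Vasa-Cre testes, a log2 ratio of −0.38 (interval −0.46 to −0.31), and was thereby the most abundant replication gene of the Bcas2F/-;Vasa-Cre library, ahead of Mcm7. The processed pseudogene Pcna-ps2 on chromosome 19 (9283380 to 9284160 on GRCm38), which is 99.2% identical to the Pcna transcript over 781 bases, went the other way, at 0.0799 and 6.79 RPKM, or 2 and 165 reads, a log2 RPKM ratio of 6.41 (interval 4.53 to 9.47). Reads of a gene and so similar a copy cannot be separated with certainty. The recovered reads of Pcna-ps2 imply a length of 1257 bases, longer than its 781 annotated bases, so its read number is uncertain. With the reads of both added, 3322 and 2631, the log2 ratio was −0.29 (interval −0.37 to −0.22), since Pcna had 854 fewer reads and the copy 163 more. Of 8 processed pseudogenes in the files that match 7 replication genes at an identity of at least 90%, Pcna-ps2 was the one with a mean of at least 1 RPKM. The Pcna promoter outside annotated coding-gene exons (chr2:132253315-132253430, minus strand) holds no E2F motif or CCAAT.
Pcna: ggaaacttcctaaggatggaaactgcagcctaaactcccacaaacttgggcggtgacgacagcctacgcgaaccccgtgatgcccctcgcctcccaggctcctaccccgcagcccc
The window of Pcna has a CCAAT box on its opposite strand, inside the first exon of the gene as GENCODE places it.

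The clamp loader, replication factor C, opens the ring of PCNA. Its subunit genes were nearly level between the libraries, with a median log2 ratio of −0.06, except for Rfc4. Rfc4 had 55.6 RPKM in control and 39.7 RPKM in Bcas2F/-;Vasa-Cre testes (938 and 650 reads), a log2 ratio of −0.48 (interval −0.63 to −0.34). Of its exon bases, 12.7% lie also in exons of Eif4a2 on the other strand. The largest subunit, Rfc1, had 57.7 and 55.2 RPKM, and Rfc2 had 37.5 and 35.5 RPKM. Rfc3 had 39.0 and 37.8 RPKM, and Rfc5 had 29.7 and 29.4 RPKM. The intervals of these 4 genes crossed no difference, with log2 ratios from −0.074 to −0.015, and none of the 4 intervals overlapped that of Rfc4.

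**Figure D3:**
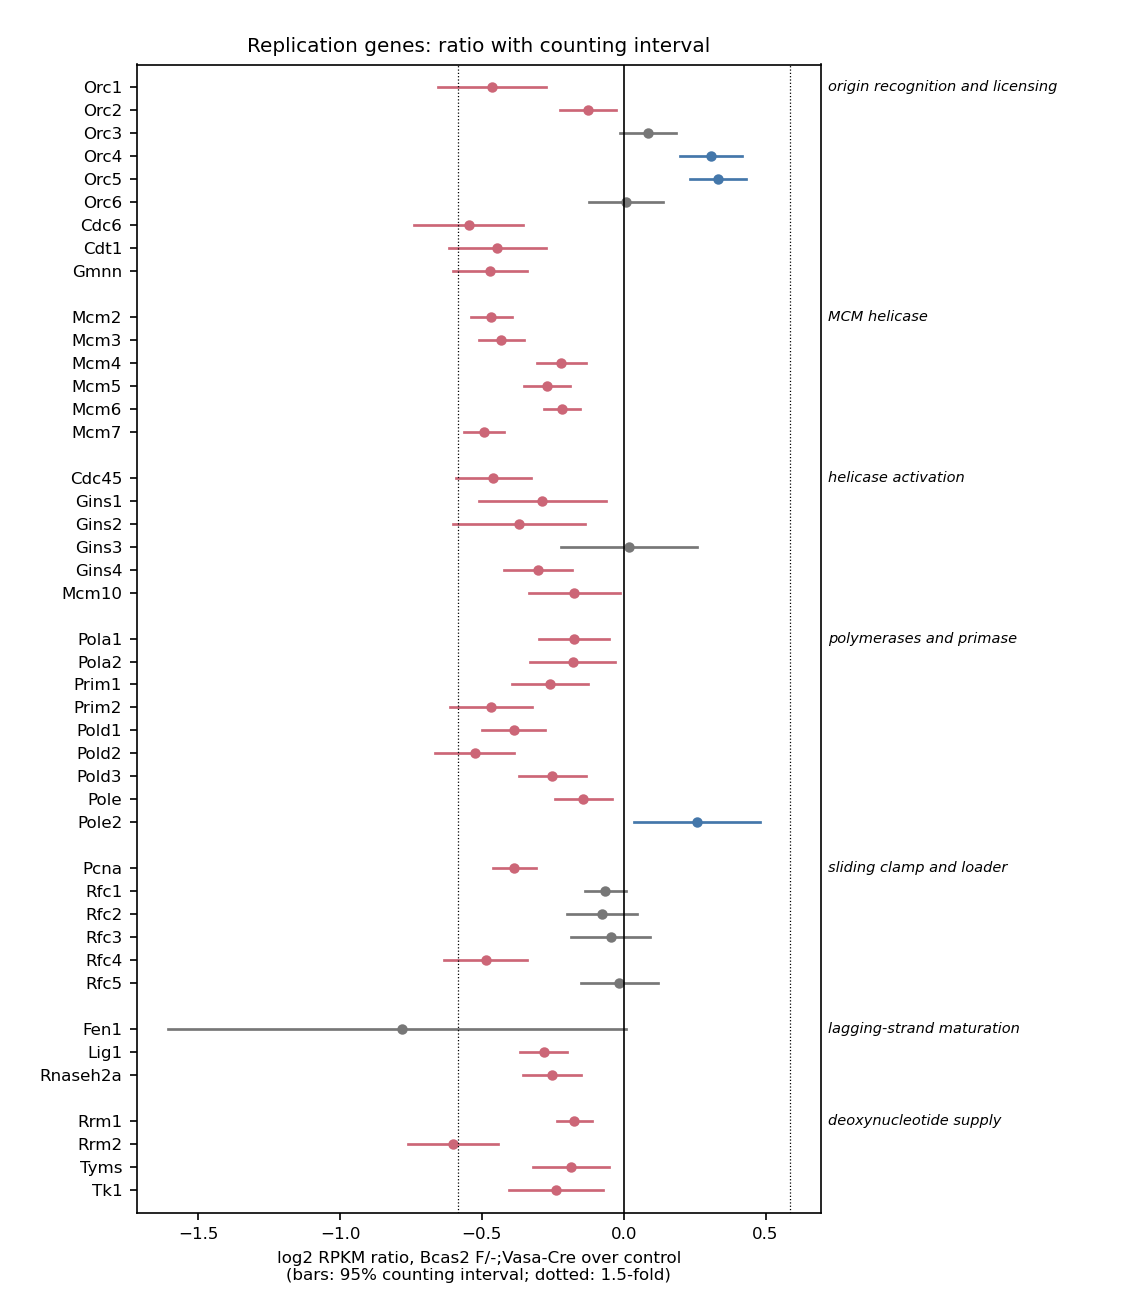
Log2 RPKM ratio of each replication gene, Bcas2F/-;Vasa-Cre over control, with its 95% counting interval as a bar, red where the bar lies below 0, blue above and grey across it, and dotted lines at 1.5-fold. Red bars number 32 among the 42 genes with a mean of at least 1 RPKM, the 3 blue ones are Orc4, Orc5 and Pole2, and the wide grey bar of Fen1 rests on 39 and 22 reads.

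The enzymes that join lagging-strand fragments were measured unequally well. Lig1, the replicative DNA ligase, had 62.9 RPKM in control and 51.7 RPKM in Bcas2F/-;Vasa-Cre testes, a log2 ratio of −0.28 (interval −0.36 to −0.20). Rnaseh2a, the catalytic subunit of RNase H2, had 75.2 and 63.1 RPKM, a log2 ratio of −0.25. Fen1, the flap endonuclease, had 0.873 and 0.508 RPKM from 39 and 22 reads, with an interval from −1.61 to 0.007. A difference could not be resolved with so few counted reads. Of its exon bases, 84.2% lie within exons of Gm10143 on the other strand. The part of that overlap in the low value was not tested.

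The 4 members of deoxynucleotide supply, Rrm1, Rrm2, Tyms and Tk1, were each lower. Rrm2, the regulated small subunit of ribonucleotide reductase, had the lowest log2 ratio of all replication genes, with 37.1 RPKM in control and 24.5 RPKM in Bcas2F/-;Vasa-Cre testes (840 and 537 reads). Its log2 ratio of −0.583 lay just short of 1.5-fold (0.585), at percentile 1.71 among all genes passing the limit. Without the added 1 it was −0.60 (interval −0.76 to −0.44) and past 1.5-fold. Rrm1, the large subunit, had a higher level and a smaller difference, at 57.9 and 51.4 RPKM, with a log2 ratio of −0.17 (interval −0.24 to −0.11) whose interval did not overlap that of Rrm2. Tyms, the thymidylate synthase, had 26.2 and 23.0 RPKM (log2 ratio −0.18). Tk1, the thymidine kinase of the salvage route, had 30.3 and 25.7 RPKM (log2 ratio −0.23). The Rrm2 promoter (chr12:24708004-24708240, plus strand), shown as that of the gene with the lowest ratio, holds a CCAAT box, in capitals, and no E2F motif.
Rrm2: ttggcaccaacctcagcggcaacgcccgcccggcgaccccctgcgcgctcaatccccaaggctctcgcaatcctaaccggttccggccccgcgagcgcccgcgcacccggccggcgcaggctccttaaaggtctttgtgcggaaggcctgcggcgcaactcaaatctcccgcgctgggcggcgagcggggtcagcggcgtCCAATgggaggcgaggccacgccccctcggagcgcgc

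In promoter windows of 300 bases, from 250 before to 50 after the start, 35 of the 43 genes had an entry. Pole, Gins4, Gins1, Prim2, Mcm4, Gins2, Rfc2 and Gmnn had none. An E2F motif was found in 15 of these 35 genes (42.9%), in 704 of all 27025 genes with a window (2.60%) and in 490 of 10253 protein-coding genes passing the RPKM limit (4.78%). With TTTCCCGC alone, the most common of the motifs, the shares were 22.9%, 1.24% and 2.44%. CCAAT was found in 21 of 35 replication genes (60%) and in 41.1% of all genes. Since replication genes are textbook targets of E2F, the share is a property of the genes and says nothing about these libraries. Genes with an E2F motif had a median log2 ratio of −0.26 (12 of 15 lower) and those without one −0.18 (16 of 19 lower). Only exact matches to the motifs searched were counted, so a gene without a match is not thereby outside E2F control. The part of E2F factors in these values was not tested. For CCAAT the medians were −0.25 with and −0.23 without.

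**Figure D4:**
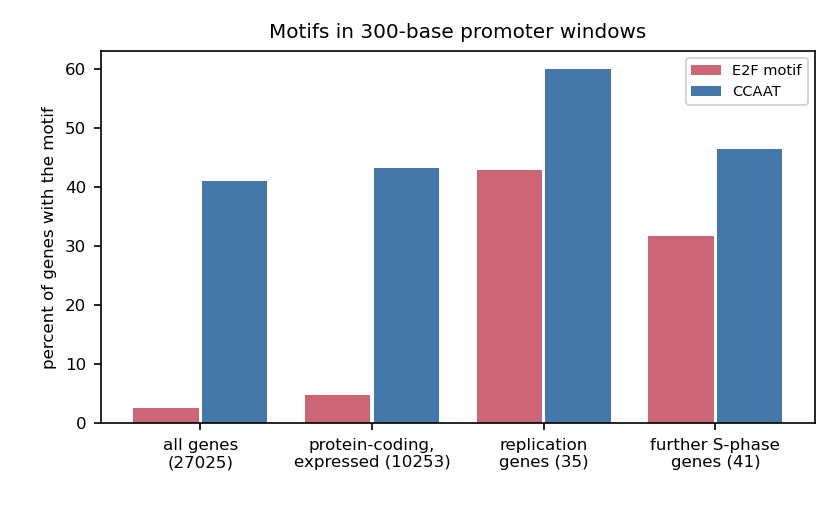
Percentage of genes whose promoter window of 300 bases holds an E2F core motif (red) or CCAAT (blue), for all genes, protein-coding genes with a mean of at least 1 RPKM, replication genes and further S-phase genes. The E2F share is 42.9% in replication genes and 2.60% in all genes, whereas the CCAAT shares differ less, from 41.1% to 60%.

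A list of 53 further S-phase genes held origin firing factors, single-strand binding proteins, histone chaperones, cyclins, E2F factors and their pocket proteins. Pold4, the small subunit of polymerase delta, was listed at 0 in both libraries, and of the other 52 genes 41 were lower and 11 higher, with a median log2 ratio of −0.19. More than 1.5-fold lower were 3 of 52, beside 1.69% of all genes, and 0 were as much higher, beside 1.57%. Asf1b, a histone H3 and H4 chaperone of proliferating cells, had 50.2 RPKM in control and 29.6 RPKM in Bcas2F/-;Vasa-Cre testes (989 and 567 reads), a log2 ratio of −0.74. E2f2, an activating E2F factor, had 4.43 and 2.52 RPKM, a log2 ratio of −0.62 (228 and 126 reads). Chtf18, the large subunit of an alternative clamp loader, had 29.6 and 19.2 RPKM, a log2 ratio of −0.60. At the other end, Dna2, a nuclease and helicase of flap processing, had 6.12 and 8.19 RPKM, a log2 ratio of 0.37 (interval 0.21 to 0.63). Chtf8, which works in the same clamp loader as Chtf18, had 56.5 and 65.7 RPKM, a log2 ratio of 0.22. Rrm2b, the ribonucleotide reductase subunit induced by p53, had 18.4 and 20.2 RPKM, and its interval crossed no difference (−0.05 to 0.33). Intervals lay below no difference for 33 of the 52 genes, beside 17.9% of all genes, and above it for 2, Dna2 and Chtf8, beside 19.9%.

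Markers of cell types moved between the libraries as well. Of 15 germ cell markers 13 were lower and Sohlh2 and Nanos2 were higher, with a median log2 ratio of −0.37 and a summed level of 904 RPKM in control and 692 RPKM in Bcas2F/-;Vasa-Cre testes. Stra8, which acts at meiotic entry, and the meiotic prophase genes Sycp1, Sycp3, Dmc1 and Smc1b were each lower. The median over these 5 was −0.56. The study's real-time RT-PCR, on replicate testes of the same age, gave similar levels for spermatogonial genes and lower levels for meiotic prophase genes. Stra8, Ddx4, Dazl, Sohlh1, Kit, Sohlh2 and Nanos2 were in the group with similar levels. Their differences here rest on 1 library per genotype and were not seen in that replicated measurement. All 6 markers of cycling cells were lower, beside 46.3% of all genes, with a median of −0.24 and summed levels of 510 and 401 RPKM. Their order was led by Top2a, at 207 and 147 RPKM (log2 ratio −0.49), and ended with Cdk1, at 71.5 and 67.3 RPKM (−0.086). The study also counted stained cells in older testes. Spermatogonia positive for PLZF, and those also positive for the mitosis marker Ki67, were not significantly different in number there. Of 10 Sertoli cell markers 8 were higher, Amhr2 was lower and Rhox5 was listed at 0 in both libraries, with summed levels of 3648 and 3933 RPKM and a median of 0.11. Most of both Sertoli sums came from Clu, at 2593 and 2813 RPKM, which had no recovered reads and so no interval. The interval lay above no difference for 4 of the 8 Sertoli markers with recovered reads, beside 19.9% of all genes. It lay across no difference for the other 4, which were Amhr2, Gata4, Fshr and Cldn11. Of 6 Leydig cell markers 4 were higher, with summed levels of 387 and 431 RPKM and a median of 0.20, and their intervals lay above no difference for 2, below it for 1 (Hsd3b1) and across it for 3. With 46.3% of all genes lower, 4 of 6 higher is near the background. Medians were −0.05 for 5 peritubular myoid markers, −0.06 for 5 endothelial markers and −0.19 for 5 macrophage markers, with summed levels of 523 and 489, 39.0 and 37.2, and 24.9 and 21.5 RPKM. Of the macrophage markers 4 were lower, with 2 intervals below no difference and 3 across it. In the myoid and endothelial lists 3 genes each were lower, with 1 interval below no difference and 4 across it in each. Intervals below no difference made up 17.9% of all genes. The part of these markers in the values of the replication genes was not tested.

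**Figure D5:**
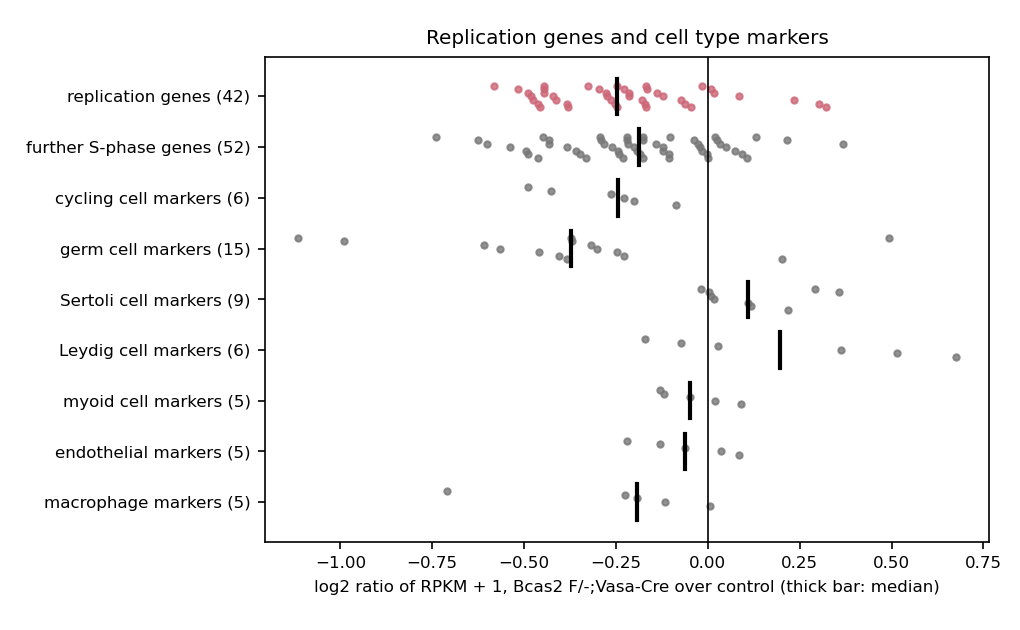
Log2 ratio of RPKM + 1, Bcas2F/-;Vasa-Cre over control, for each gene of the replication list, the further S-phase list and the cell type marker lists, with the number of genes in parentheses and the median as a thick bar. The medians of replication genes (−0.25), further S-phase genes (−0.19), cycling cell markers (−0.24), germ cell markers (−0.37), macrophage (−0.19), endothelial (−0.06) and peritubular myoid markers (−0.05) lie below 0, and those of Sertoli (0.11) and Leydig cell markers (0.20) above.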

How the data were processed

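RNA-seq of whole testes gave 1 control and 1 Bcas2F/-;Vasa-Cre library. Adaptors and poor reads were taken out by the authors, who aligned the read pairs with TopHat2 (2.0.9, to mm10 per the submitters' processing notes) and counted them with HTSeq. The values they deposited are RPKM. The annotation, the gene lengths and the use of strand in counting were not given in the sources used here. Of 39695 entries, 37692 had their Ensembl identifier in GENCODE M21 (GRCm38). Reads were recovered from the whole-number ratios of RPKM between libraries, for 21198 of 21210 matched genes above 0 in both (99.9%), taking the multiple nearest to the mean transcript length. Counting error was expressed by exact 95% Clopper-Pearson limits, from each gene's split of reads between the libraries. The RPKM limit was a mean of at least 1, the pseudocount 1 and the fold threshold 1.5, the lower threshold of the study's methods. Shared exon bases were counted on GENCODE M21, and pseudogene copies were found with BLAST+ 2.17.0 (identity of at least 90%, length of at least 50%).

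All 43 genes were named by symbol. The further S-phase genes named were those past 1.5-fold and the 3 lowest and 3 highest, and the promoters printed by rule were those of the largest fall, the largest rise and Pcna. The members and lists were chosen with earlier results of these data known. Alternatives were other pseudocounts, scalings and limits, an added demand on the interval, reads pooled with pseudogene copies and a single E2F motif. The procedures were tested on simulated data. The software was Python 3.11.15, matplotlib 3.10.9, pandas 2.3.3, scipy 1.17.1 and numpy 2.4.6.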

Additional observations from a re-analysis of the deposited data

How the results depend on the processing

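The median log2 ratio of the replication genes stayed between −0.26 and −0.22 when the pseudocount was 0.1 or 0.01, when the median of all genes was set to 0, when each library was rescaled to sum to 1000000, and with a limit of 5 or none on mean RPKM. The number of lower genes was 36 or 37 under these settings. The number past 1.5-fold lower was 0 as reported and 1, Rrm2, with a pseudocount of 0.1, with 0.01 and with the median set to 0, where 3.08%, 3.27% and 1.80% of all genes were past it. Rescaling moved the median of all genes from 0.015 to 0.042. Of 255 single-gene alternatives, 252 moved the value by less than its counting error without a change of sign. The others were Orc6 (−0.0078 with the median set to 0), Rfc5 (0.013 after rescaling) and Pcna pooled with its copy (−0.29). A limit of 5 or none on mean RPKM cannot change the ratio of a single gene, and setting the median to 0 shifts every gene alike. Much of that count was therefore fixed in advance and is no measure of stability. With TTTCCCGC as the only motif, the share of replication gene promoters with a match was 22.9%, beside 1.24% of all genes. Chosen after seeing the data, genes with under 10% of exon bases shared gave a median of −0.24 with 28 of 34 lower, and 33 intervals lay below no difference with the median set to 0 and 30 after rescaling. The cause of these shifts was not tested. No paired analysis was possible because each genotype had 1 library, and for the same reason no library could be left out. Low numbers of counted reads limited Fen1 most, followed by Gins3, Gins2 and Gins1, and the spread between mice is unknown for every gene.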

Other observations

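Protein-coding genes were divided into 3 classes of equal size by GC content, transcript length and mean RPKM, and the replication genes of each class were set beside them. By GC content, the medians of the log2 ratio over all protein-coding genes were 0.05, 0.01 and −0.03 from the lowest to the highest class. The replication genes had medians of −0.17 (17 genes), −0.23 (16 genes) and −0.33 (9 genes) in the same classes. By transcript length, the medians over all protein-coding genes were −0.04, 0.01 and 0.05 from short to long, and those of the replication genes −0.29 (20 genes), −0.21 (18 genes) and −0.15 (4 genes). By mean RPKM, the replication genes had medians of −0.33 (3 genes), −0.18 (13 genes) and −0.26 (26 genes), where all protein-coding genes had medians between 0.00 and 0.02. The part of GC content and length in the values was not tested.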
